A study of Mus musculus with 24 samples.

Results

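The miR-30 family was examined through 8 mature strands: the 5p strands mmu-miR-30a-5p, mmu-miR-30b-5p, mmu-miR-30c-5p, mmu-miR-30d-5p and mmu-miR-30e-5p, and the 3p strands mmu-miR-30a-3p, mmu-miR-30e-3p and mmu-miR-30c-1-3p, written below without the species prefix. They were chosen by name, and all 8 were present among the 696 mouse miRNAs on the array. RNA came from C57BL/6J mice aged 34 days that had worn a frosted diffuser over the right eye for 10 days from postnatal day 24. This is form deprivation, a blurring of vision that makes the eye grow too long, and the untreated left eye of the same animals was the control, so every control belonged to a treated mouse. The 24 one-colour Agilent arrays were 6 whole eye myopia, 6 whole eye control, 3 retina titled myopia, 3 retina titled control, 3 sclera titled myopia and 3 sclera titled control. A retina or sclera array titled myopia is a control by its source name and phenotype field, and the reverse. These arms are therefore called "titled", and the direction of a difference between them is unsettled. For whole eye these labels name the same arm, but a sentence of the description names the other, by which each difference would change sign. Of 15 mice, 6 gave whole eyes, 9 retinas and 9 scleras, and the labels do not state which animals or pools an array held. The p-values thus measure the spread between these arrays, which may be partly technical.

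A microRNA gene is transcribed as a hairpin, which is cut into 2 short strands. Usually the larger part of one strand is loaded into the silencing complex, and the other, the minor strand, is mostly degraded. The seed, bases 2 to 8 of a mature strand, pairs with target messenger RNAs, so strands that share a seed can share targets. The 5p strands of miR-30 are abundant in many differentiated tissues, and are known for repressing Snail1 and connective tissue growth factor, genes of epithelial-to-mesenchymal transition and of scarring. The sclera, the fibrous coat whose matrix is remodelled in myopia, and the retina, a neural tissue that senses blur, were measured apart and together within the whole eye.

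RefSeq (GRCm38.p6) gave mature sequences for 6 of the 8 members. They are shown because the family falls into 3 seed groups, with the seed in capitals. The 5p strands share the seed GUAAACA, which miR-384-5p, from another gene, also carries:
miR-30a-5p: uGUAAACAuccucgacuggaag
miR-30c-5p: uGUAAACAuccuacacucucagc
miR-30e-5p: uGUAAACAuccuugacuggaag
miR-384-5p: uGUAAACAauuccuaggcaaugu

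Counted from the 5′ end, miR-30a-5p and miR-30e-5p differ only by C13U, outside the seed. The 3p strands of miR-30a and miR-30e share the seed UUUCAGU and differ from each other only by G18A:
miR-30a-3p: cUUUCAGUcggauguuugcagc
miR-30e-3p: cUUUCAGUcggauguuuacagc

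The 3p strands of both miR-30c hairpins carry another seed, UGGGAGA. miR-30c-1-3p and miR-30c-2-3p differ by G9A, U12C and C22U:
miR-30c-1-3p: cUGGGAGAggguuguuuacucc
miR-30c-2-3p: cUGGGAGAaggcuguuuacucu

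The Mir30c-1 hairpin lies on the minus strand at chr4:120769534-120769622 (GRCm38.p6), within the span of Nfyc, a gene for a subunit of the transcription factor NF-Y. Mir30e lies within the same gene at chr4:120772606-120772697. Mir30a and Mir30c-2 lie on chromosome 1, at chr1:23272269-23272339 and chr1:23291701-23291784, both on the plus strand. The hairpin of the minor strand on which the results below turn is shown with both mature strands in capitals:
Mir30c-1: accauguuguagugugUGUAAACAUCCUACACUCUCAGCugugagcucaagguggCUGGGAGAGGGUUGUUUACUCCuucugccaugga

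The mature miR-30c-5p is the same from Mir30c-1 and from Mir30c-2, so its signal can come from both hairpins. The ratio of miR-30c-1-3p to miR-30c-5p therefore compares a product of one hairpin with the shared product of a pair.

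Each member was read by 20 spots of 2 to 4 probes, of 13 to 19 bases, complementary to the 3′ part of the mature strand. Close relatives were separated by few probe bases, which is why the longest probe of each is given here. Capitals mark the bases in which a probe differs from the miR-30a probe of the same arm, or from the miR-30c-1-3p probe:
miR-30a-5p probe: cttccagtcgaggatgt
miR-30e-5p probe: cttccagtcAaggatgt
miR-30d-5p probe: cttccagtcgGgga
miR-30a-3p probe: gctgcaaacatccgact
miR-30e-3p probe: gctgTaaacatccgactg
miR-30c-1-3p probe: ggagtaaacaaccctctcc
miR-30c-2-3p probe: AgagtaaacaGccTtctcc

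The probes of miR-30b-5p and miR-30c-5p end in a shared run of 13 bases, in capitals:
miR-30b-5p probe: agctGAGTGTAGGATGT
miR-30c-5p probe: gctgaGAGTGTAGGATGT

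How far the probes of close relatives cross-hybridise was not tested. In the mm9 coordinates of the files, the longest miR-30c-1-3p probe matches chr4:120442197-120442215 on the minus strand, and the miR-30b-5p and miR-30d-5p probes lie on chromosome 15.

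Between 274 and 401 mouse miRNAs were detected per array, and the number of arrays limits the precision. Defining miRNAs of retinal neurons (miR-124-3p, miR-9-5p, miR-183-5p, miR-182-5p and miR-96-5p) were detected on every array, the sclera arrays included. The log2 of their summed scaled signal ran from 7.55 to 7.81 in retina, from 6.47 to 6.69 in whole eye and from 1.38 to 3.98 in sclera. The summed fibroblast list was highest in sclera, at 3.97 to 4.28, against -3.28 to -1.60 in retina, where miR-214-3p was detected on no array. Skeletal muscle miRNAs were highest in sclera too (1.1 to 2.07) and pigment epithelium miRNAs were detected everywhere (2.80 to 4.73). The cornea and lens list ran from -3.22 to 2.19 in retina, from 3.18 to 4.11 in whole eye and from 0.18 to 3.16 in sclera. The blood list, with only 2 miRNAs on the array, ran from -5.26 to -4.39 in retina and from -0.86 to -0.39 in sclera. In each sclera group only 1 of these was detected on all arrays. Sclera titled control replicate 3 was the dimmest sclera array, with an unscaled miR-30a-5p signal of 1428 against 2552 to 4547 on the others, and calls on members that change without it are given both ways. The part of these other cell types in the differences between tissues below was not tested. In such bulk samples, fewer cells of a type and less of a miRNA per cell cannot be told apart.

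Detection separated 1 strand from the rest. By the scanner software's call, 7 of 8 members were detected on all 24 arrays, as were 237 of the 696 mouse miRNAs. miR-30c-1-3p was detected on 6 of 6 whole eye myopia arrays, on 5 of 6 whole eye control arrays and on all 6 retina arrays. It was detected on 0 of 6 sclera arrays. None of the 3840 member spots was saturated, and 138 were left out as outliers. Spots of the same probe varied by a median of 13.3% (coefficient of variation) for miR-30c-1-3p and by 3.05% to 6.65% for the other members.

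The unscaled signals of miR-30c-1-3p spanned more than 2 orders of magnitude over the series. Retina titled myopia arrays measured 628, 520 and 199, and retina titled control arrays 438, 183 and 45.9, in each case on slides 1, 2 and 3. Whole eye myopia arrays ran from 23.8 to 210 with a median of 75.1. Whole eye control arrays ran from 5.96 to 22.5 with a median of 13.6. The sclera arrays lay between 1.44 and 5.48, so the whole eye control arrays were closer to sclera than to retina. In both retina arms the array of slide 1 was the brightest and that of slide 3 the dimmest. Slide as a block is given with the retina arms below.

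Levels are given from here as the log2 of the signal scaled to each array's 75th percentile. One scale over all 24 arrays serves comparisons between tissues, and each tissue has its own scale for its arms. Probes differ in brightness, so levels are compared between groups and never between strands. On the scale of all 24 arrays, the 5 strands of the 5p arm followed 1 order of tissues, with retina highest, whole eye between and sclera lowest. miR-30b-5p had the widest span among them. Its level was 1.70, 1.76 and 1.70 on the retina titled myopia arrays and 1.72, 1.72 and 1.78 on the titled control arrays. Whole eye arrays ran from 0.78 to 1.04 with a median of 0.86. The sclera arrays were 0.00, -0.16 and 0.05 in the titled myopia arm and 0.20, 0.23 and -0.04 in the titled control arm. No array of one tissue overlapped another's, while the arms of each tissue overlapped.

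miR-30a-5p, which differs from miR-30e-5p by a single base, had the narrowest span. It measured 2.63, 2.61 and 2.64 on retina titled myopia arrays and 2.59, 2.60 and 2.79 on retina titled control arrays. Whole eye arrays ran from 1.92 to 2.14 with a median of 2.05. In sclera the level was 1.71, 1.65 and 1.87 in the titled myopia arm and 1.89, 1.86 and 1.75 in the titled control arm. The lowest whole eye array was thus only just above the highest sclera array. In miR-30e-5p, 1 sclera array stood below the rest: titled control replicate 3 at -0.60, against -0.20 to 0.00 on the other 5 sclera arrays.

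Over tissues, miR-30c-5p fell from a mean of 2.10 ± 0.0654 (SD) over the 6 retina arrays to 1.34 ± 0.0674 over the 12 whole eye arrays and 0.81 ± 0.198 over the 6 sclera arrays. The corresponding means of miR-30d-5p were 0.63 ± 0.0658, -0.08 ± 0.116 and -0.59 ± 0.232, and its whole eye and sclera arrays overlapped. Among the 3p strands, miR-30a-3p had means of -2.21 ± 0.0825, -2.85 ± 0.0710 and -3.13 ± 0.181, and miR-30e-3p of -2.32 ± 0.0794, -3.08 ± 0.0749 and -3.74 ± 0.168. The whole eye and sclera arrays of miR-30a-3p overlapped, and those of miR-30e-3p did not. Within groups, these 7 strands were among the least variable miRNAs, with a pooled SD of 0.0785 to 0.141 against a median of 0.248 over 426 tested miRNAs. They ranked 337 to 420 from the most variable.

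**Figure D1:**
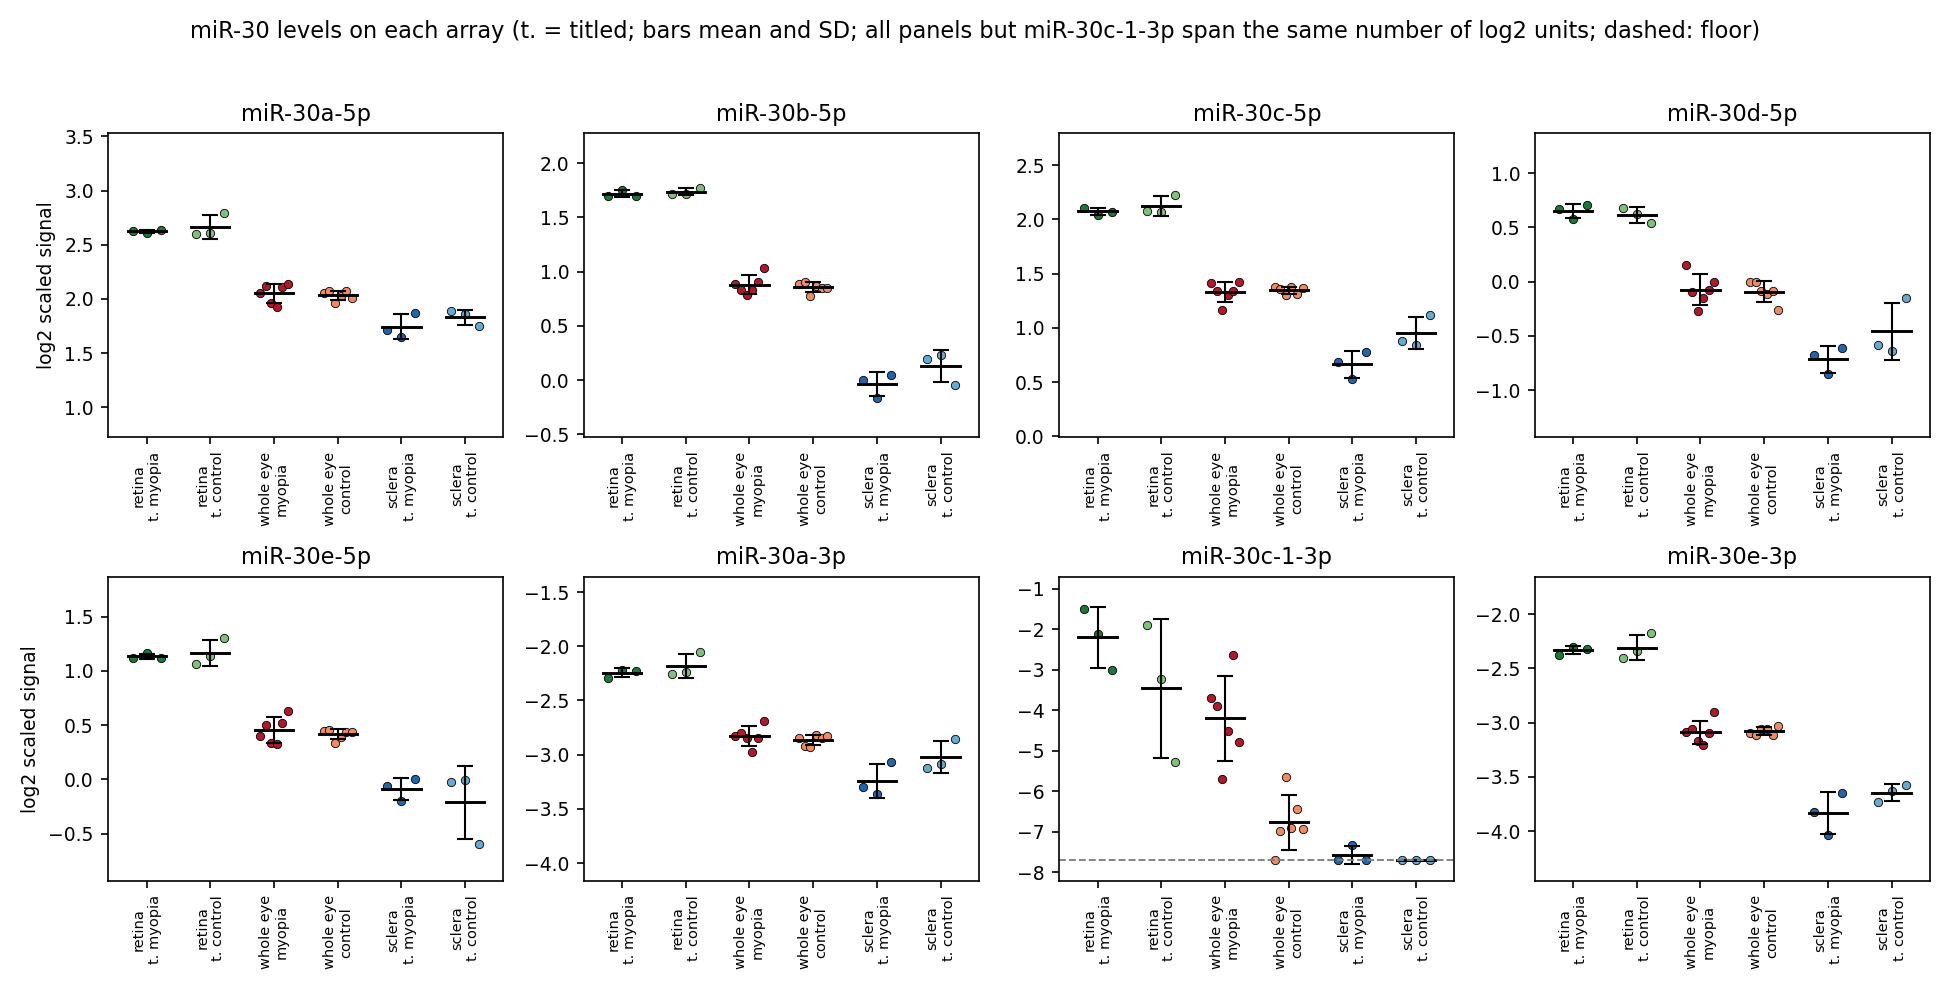
Level of each member on every array (log2 scaled signal, scale of all 24 arrays; points are arrays, bars mean and SD of the 6 title groups). All panels but that of miR-30c-1-3p step down from retina to whole eye to sclera with little spread, and miR-30c-1-3p spreads over several log2 units and meets the floor of -7.69 in sclera.

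miR-30c-1-3p behaved differently in spread. Its pooled SD within groups was 0.910, rank 26 of 426. Its scaled level on the retina titled myopia arrays was -1.49, -2.10 and -2.99, and on the retina titled control arrays -1.88, -3.21 and -5.28. Whole eye myopia arrays ran from -5.68 to -2.62 (median -4.20) and whole eye control arrays from -7.69 to -5.65 (median -6.91). All 6 sclera arrays were at the floor or within 0.38 of it. The group order was retina titled myopia, retina titled control, whole eye myopia, whole eye control and then both sclera groups, and every neighbouring pair in that order overlapped.

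The tests across tissues used limma with all 24 arrays in 6 groups, averaged over both arms, so that the naming of the arms does not matter. The 7 strands detected in sclera were all higher in retina, against a background of 58.7% of the 426 tested miRNAs called higher. The 3p strands were not so with normexp background correction. miR-30c-1-3p passed too, but only on values floored in sclera, so it is not counted with them. The 7 strands other than miR-30c-1-3p differed by 0.85 to 1.68 with a median of 1.29, and the median over all tested miRNAs was 0.81. miR-30b-5p was 3.21-fold higher (log2 1.68, SE 0.0563, limma adjusted p = 7.57e-17). miR-30a-5p was 1.81-fold higher (log2 0.85, SE 0.0548, limma adjusted p = 5.06e-12), close to the median of all miRNAs. The interval of this difference, 0.74 to 0.97, does not meet that of miR-30b-5p, 1.57 to 1.80. miR-30c-1-3p, undetected in sclera, was at least 23.9-fold higher in retina. Its limma adjusted p = 1.58e-08 is of the floored values and not of this bound.

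The share of members that passed is to be read against a scaling that matters here. When arrays were scaled to the percentile of every miRNA, detected or not, the 7 strands' median dropped to 0.51 and the general median to 0.08. Then miR-30a-5p (0.07, limma adjusted p = 0.529) and miR-30a-3p (0.14, limma adjusted p = 0.222) no longer passed. The other 6 members did, miR-30c-1-3p on floored values. The direction of all 8 held under each scaling tried. With normexp background correction, which adds an offset of 50 to each probe, all 3 of the 3p strands turned (miR-30a-3p to -0.17, miR-30e-3p to -0.094 and miR-30c-1-3p to -0.36, none of them passing).

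Whole eye lay below retina in all 8 members, against a background of 65% called lower. The 7 strands differed by -0.86 to -0.60, with a median of -0.72, and all tested miRNAs by a median of -0.70. miR-30c-1-3p fell by 2.65 on the log2 scale (SE 0.435, limma adjusted p = 1.01e-05), and its whole eye and retina arrays overlapped. With normexp it was -0.66 and did not pass (limma adjusted p = 0.0872). With every miRNA in the scaling, the 7 strands had a median difference of -0.17, beside -0.16 for all tested miRNAs, and 4 of the 8 members passed. Of all 426 tested miRNAs, 318 passed in either direction, 137 of them higher in whole eye. Between whole eye and sclera the 7 strands detected in sclera were higher in whole eye, again without the 3p strands under normexp. The background was 40.1% called higher. The 7 strands differed by 0.25 to 0.82, with a median of 0.53 against 0.15 for all tested miRNAs. miR-30c-1-3p was at least 3.80-fold higher in whole eye (limma adjusted p = 1.64e-04 for floored values), with its lowest whole eye array at the floor. That call was lost in the authors' value table (0.60, limma adjusted p = 0.0715). With every miRNA in the scaling, miR-30a-5p (0.02) and miR-30a-3p (0.05) no longer passed. With normexp the 3p strands turned here too, to -0.53 for miR-30a-3p, -0.52 for miR-30e-3p and -1.02 for miR-30c-1-3p, each passing. The 7 strands detected in sclera had every retina array above every sclera array, against 44.6% of tested miRNAs. For miR-30c-1-3p, undetected in sclera, that order was set in advance by detection and the floor. Of the 8, 7 had no whole eye array overlapping a retina array, against 40.6% of tested miRNAs that lay wholly below, and 5 had no whole eye array overlapping a sclera array, against 25.4% that lay wholly above.

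**Figure D2:**
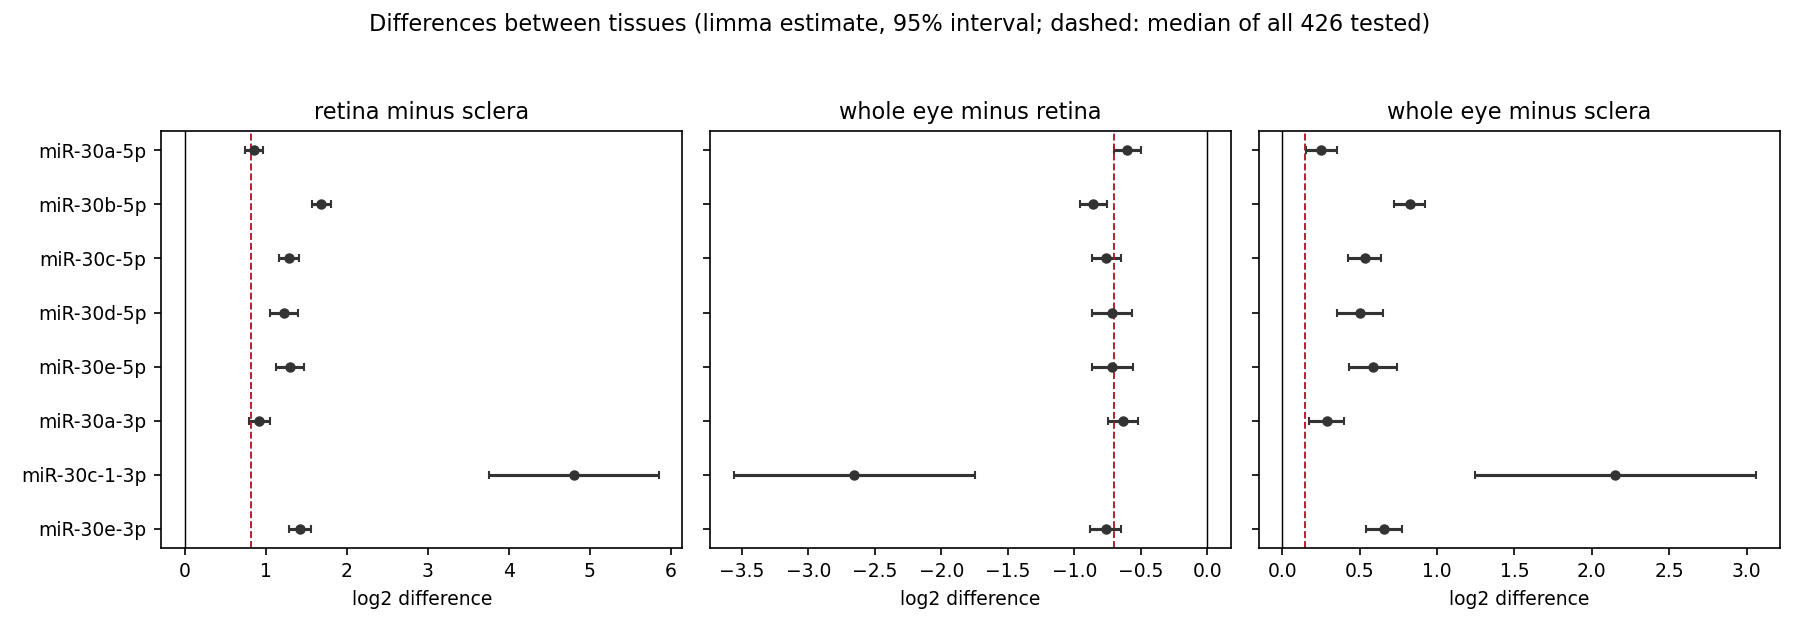
Difference between tissues for each member (x axis, log2; points are limma estimates with 95% intervals, the dashed line is the median of all 426 tested miRNAs). In retina minus sclera, miR-30a-5p at 0.85 sits by the dashed line and miR-30b-5p at 1.68 beyond it. For miR-30c-1-3p the plotted estimates against sclera depend on the floor, and the text gives bounds.

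The ratio of the minor to the other strand on the same array is free of array scaling where both strands lie above the floor. Only its differences between groups are read. The floor set miR-30c-1-3p on most sclera arrays and on whole eye control replicate 1. The ratio to miR-30c-5p on that whole eye array was -9.07 on the scale of all 24 arrays and -8.51 on the whole eye scale. For miR-30a the log2 ratio was nearly constant over the series: its means were -4.86 ± 0.0315 (SD) over 6 retina arrays, -4.89 ± 0.0544 over 12 whole eye arrays and -4.92 ± 0.157 over 6 sclera arrays. For miR-30e they were -3.47 ± 0.0193, -3.52 ± 0.0587 and -3.59 ± 0.311. On sclera titled control replicate 3 both ratios were the highest of the series, -4.61 for miR-30a and -2.98 for miR-30e. For miR-30c-1-3p over miR-30c-5p, retina titled myopia arrays had ratios of -3.60, -4.15 and -5.06 and retina titled control arrays of -3.96, -5.28 and -7.51. Whole eye arrays ran from -9.07 to -3.96 and sclera arrays, where the numerator was undetected, from -8.81 to -7.85.

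Of 3 member strand pairs tested between retina and sclera, 1 passed, against a background of 75.3% of 85 pairs called in either direction. That pair was miR-30c-1-3p over miR-30c-5p, with a ratio at least 9.75-fold higher in retina (limma adjusted p = 3.25e-06 for floored values). The miR-30a ratio differed by 0.07 (95% interval -0.06 to 0.19, limma adjusted p = 0.338) and the miR-30e ratio by 0.12 (-0.06 to 0.30, limma adjusted p = 0.215). Without sclera titled control replicate 3, both passed as well, at 0.13 (limma adjusted p = 0.00971) and 0.24 (limma adjusted p = 9.30e-05). In that fit, 66 of all 85 pairs passed in either direction. In whole eye minus retina the pair of miR-30c-1-3p passed (log2 -1.89, SE 0.443, limma adjusted p = 0.00106, background 55.3%). The miR-30a and miR-30e ratios differed there by -0.03 (-0.14 to 0.08) and -0.05 (-0.21 to 0.11). In whole eye minus sclera the pair of miR-30c-1-3p again was the 1 of 3 that passed (at least 2.63-fold, limma adjusted p = 0.00426 for floored values, background 50.6%). Without sclera titled control replicate 3 all 3 did, and 46 of all 85 pairs.

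The calls on the miR-30c-1-3p ratio across tissues depended on how dim signal was treated. In the authors' value table, whose treatment of dim probes no source used here states, the ratio differed by -0.0021 between retina and sclera. With normexp it was -1.87 (limma adjusted p = 8.54e-04).

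**Figure D3:**
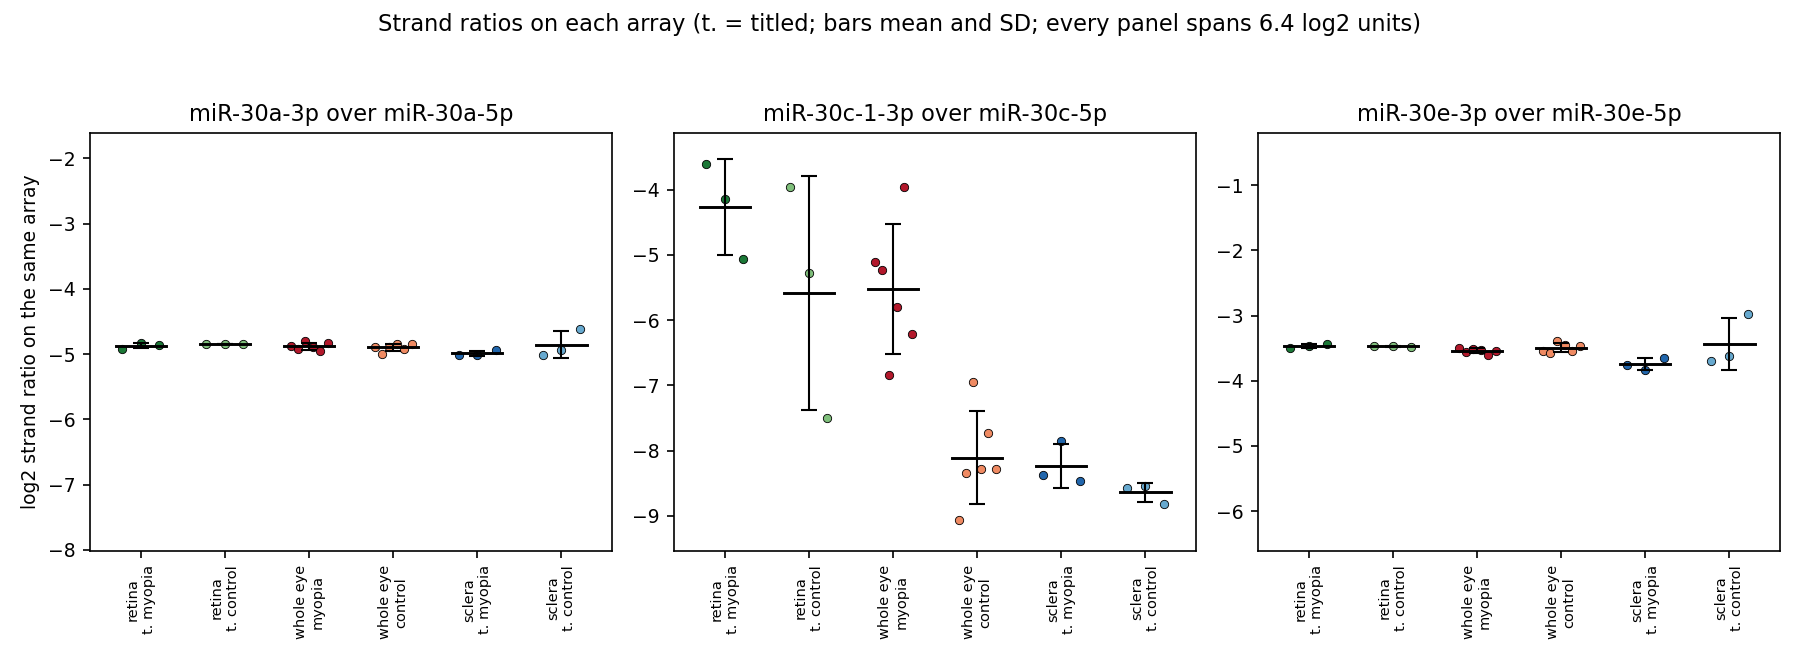
Log2 ratio of the minor strand to the 5p strand on each array, in 6 title groups (points are arrays, bars mean and SD; every panel spans the same number of log2 units). The miR-30a and miR-30e ratios are nearly level, while miR-30c-1-3p over miR-30c-5p runs from -3.60 to -9.07. The array at -9.07 and most sclera arrays have miR-30c-1-3p set to the floor.

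Form deprivation in the whole eye was compared next. One member, 1 of 8, differed between the arms, against a background of 10.3% of 341 tested miRNAs, all of them higher in myopia. On the whole eye scale, miR-30c-1-3p ran from -4.92 to -2.05 in myopia (median -3.54) and from -6.58 to -5.0 in control (median -6.35). Every myopia array exceeded the highest control array, as for 9.68% of tested miRNAs, but the nearest arrays were close, at -4.92 and -5.0. On the scale of all 24 arrays these 2 arrays changed order, at -5.68 and -5.65. The difference was 2.56 (SE 0.424, 95% interval 1.64 to 3.49, limma adjusted p = 0.00109; 6 arrays per arm).

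The difference was unequal between slides, each of which held 2 whole eye arrays per arm. On the whole eye scale it was 3.07 on slide 1, 3.44 on slide 2 and 1.18 on slide 3. Fitted within a slide alone, it passed on slide 1 (limma adjusted p = 0.0292) and slide 2 (limma adjusted p = 0.0206) and not on slide 3 (0.93, limma adjusted p = 0.581). With normexp background correction it was 0.32 (limma adjusted p = 0.130). The position of an array on its slide and the arm cannot be told apart.

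All 4 probes of miR-30c-1-3p had a higher median in the myopia arm. The 19-base probe ran from 20.1 to 94.1 in myopia (median 35.8) and from 9.95 to 15.9 in control (median 14.9), without overlap. The 18-base probe had medians of 13.6 and 2.34. The 17-base and 16-base probes had medians of 6.05 and 11.9 in myopia, and medians below 0 after background subtraction in control. Fitted alone in order of length from 16 to 19 bases, the probes gave differences of 2.20, 1.73, 2.48 and 1.65 (limma adjusted p = 0.0222, 0.0340, 0.00437 and 0.00132). In control, values below 0 of the 16-base and 17-base probes were set to the floor, so those differences and p-values depend on it. The 18-base difference was 2.94 before flooring, and the 19-base difference 1.65 either way. These probe signals are low beside the offset of 50 that normexp adds to each.

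Control features of the array moved with the same arms. The bright corner control spots, 8 to 10 per array, whose target no source used here names, had mean signals of 226 to 487 in whole eye myopia and of 137 to 230 in whole eye control. In retina they were 362 to 576 in titled myopia and 191 to 451 in titled control, and in sclera 104 to 163. Negative control spots went the other way in whole eye, with 0.726 to 2.09 in myopia and 2.22 to 3.77 in control. Retina titled myopia had the highest median in both signals, 487 in corner spots and 520 in miR-30c-1-3p. Whole eye myopia was above retina titled control in corner spots, with medians of 288 and 248, and below it in miR-30c-1-3p, with medians of 75.1 and 183. The part of such a signal in the miR-30c-1-3p difference was not tested.

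**Figure D4:**
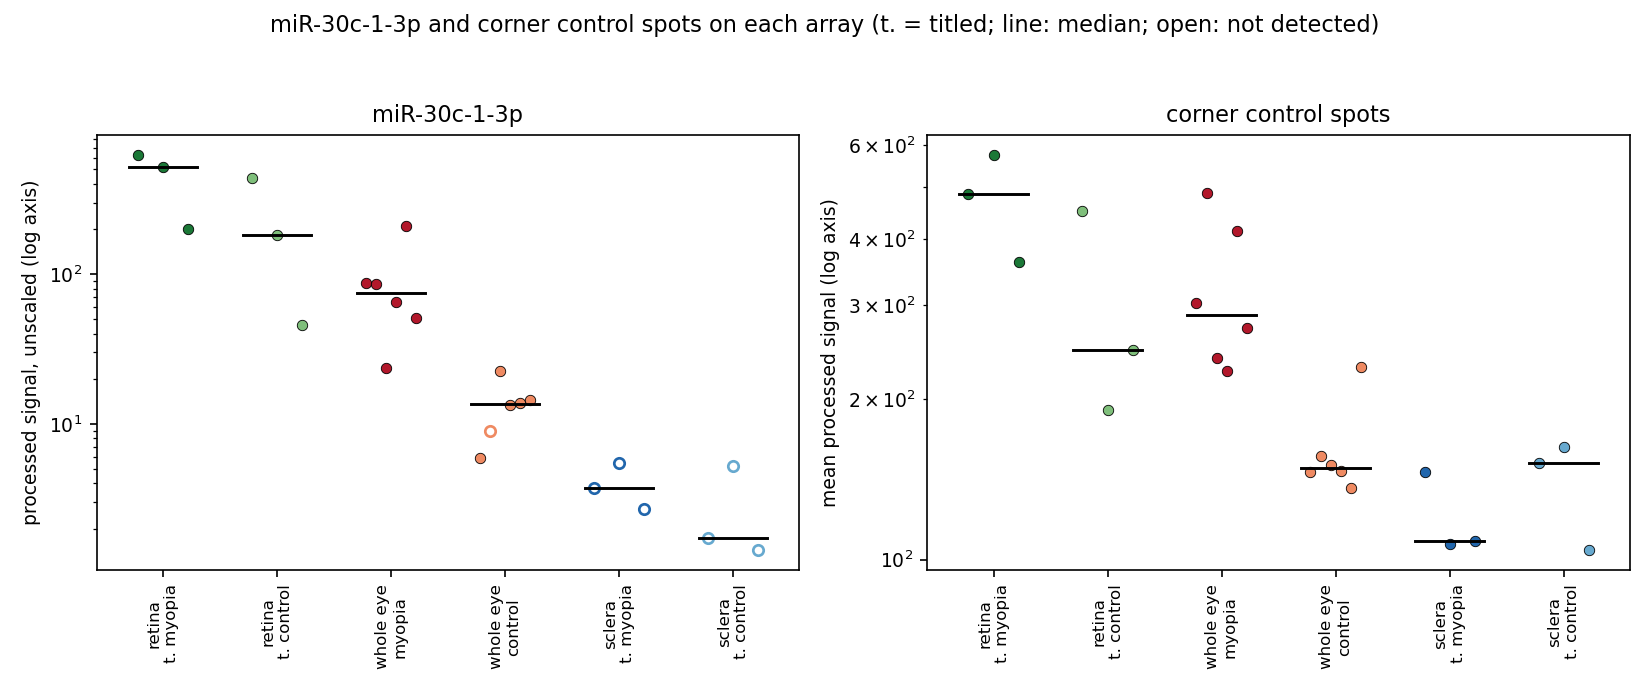
Unscaled signal of miR-30c-1-3p (left) and of the corner control spots (right) on each array, both on log axes, in 6 title groups (points are arrays, open points not detected, lines medians). Whole eye myopia exceeds whole eye control in both panels, with medians of 75.1 against 13.6 and of 288 against 149.

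The other 7 strands did not pass in whole eye. Their differences ran from 0.07 for miR-30c-5p to 0.12 for miR-30e-5p, near the median of all tested miRNAs of 0.08. Their adjusted p-values in limma were 0.171 to 0.505. At an unadjusted p under 0.05 there were 4 of the 8 members, miR-30c-1-3p among them, beside 84 of all 341 tested miRNAs. For miR-30c-5p, the partner strand of miR-30c-1-3p, myopia arrays ran from 1.82 to 2.13 (median 1.98) and control arrays from 1.80 to 1.99 (median 1.93). Its difference had a 95% interval of -0.06 to 0.20. miR-30e-5p, from the same host gene Nfyc, ran from 0.98 to 1.25 in myopia and from 0.93 to 1.03 in control, with an interval of 0.01 to 0.23. The sign of these small differences follows the scaling: the median of the 7 was 0.10 here, -0.11 with the percentile over all miRNAs, -0.03 after quantile normalisation and -0.22 in the authors' value table.

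**Figure D5:**
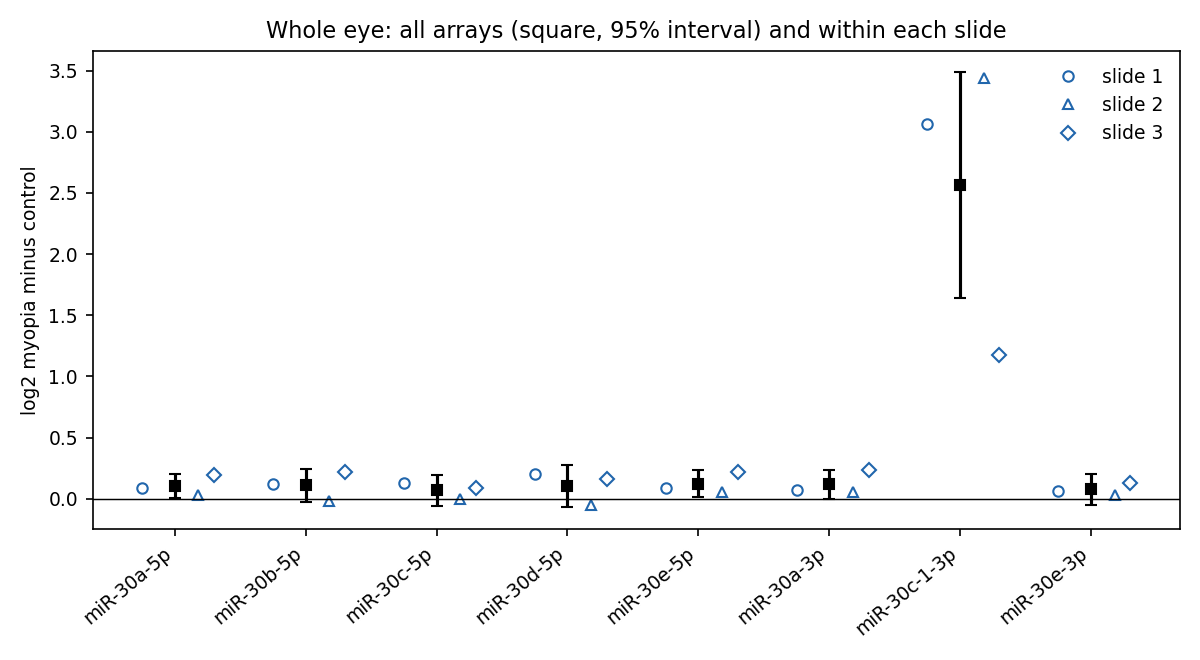
Whole eye myopia minus control for each member (y axis, log2; squares are limma estimates with 95% intervals over all 12 arrays, open symbols the difference within each slide). Among the 8 members, miR-30c-1-3p lies farthest from 0, with 3.07, 3.44 and 1.18 on slides 1, 2 and 3.

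The strand ratio differed about as much as the minor strand itself. The ratio of miR-30c-1-3p to miR-30c-5p ran from -6.85 to -3.96 in whole eye myopia (median -5.52) and from -8.51 to -6.95 in control (median -8.28). The difference was 2.49 (SE 0.437, limma adjusted p = 0.00196), and 1 of 3 member pairs passed against a background of 9.09% of 55 pairs. At an unadjusted p under 0.05 there were 8 of all pairs and 1 member pair. The miR-30a ratio differed by 0.02 (95% interval -0.08 to 0.11) and the miR-30e ratio by -0.05 (-0.14 to 0.05). The call on the miR-30c-1-3p ratio was lost in the authors' value table (1.19, limma adjusted p = 0.0635) and with normexp (0.26, limma adjusted p = 0.800). Fitted within slides 1, 2 and 3 it was 3.23, 3.44 and 1.09, and none passed.

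In retina, 0 of 8 members passed between the titled arms, with a background of 0% of 396 (limma; 20 of all miRNAs and 0 members at an unadjusted p under 0.05). miR-30c-1-3p was on average 1.21 higher in titled myopia (SE 0.924, 95% interval -1.12 to 3.53, limma adjusted p = 0.752). Its values overlapped: -0.83, -1.46 and -2.27 in titled myopia and -1.27, -2.32 and -4.60 in titled control on the retina scale. On each slide the titled myopia array was the higher, by 0.43, 0.86 and 2.32. Without titled control replicate 3 the difference was 0.23, and without titled control replicate 1 it was 1.89. With slide as a block its SE fell to 0.437, and it still did not pass (limma adjusted p = 0.361). The other 7 strands differed by -0.12 to -0.02, with a median of -0.09 beside -0.07 for all tested miRNAs. That median was -0.23 without titled control replicate 1, -0.48 with the percentile over all miRNAs and -0.23 in the authors' value table. The strand ratios gave 0 of 3 passes (background 0% of 72; 3 of all pairs and 0 member pairs at an unadjusted p under 0.05), with 1.31 for miR-30c-1-3p over miR-30c-5p (SE 1.01, limma adjusted p = 0.678).

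In sclera, 0 of 7 members tested passed (background 0% of 311, limma; 7 of all miRNAs and 0 members at an unadjusted p under 0.05), and miR-30c-1-3p was below detection and was not tested. Differences ran from -0.12 for miR-30c-5p to 0.29 for miR-30e-5p. miR-30c-5p was the only member whose arms did not overlap, at 1.11, 1.06 and 1.17 in titled myopia and 1.22, 1.23 and 1.25 in titled control on the sclera scale (limma adjusted p = 0.964). Of tested miRNAs, 3.54% were wholly lower in titled myopia. The miR-30e-5p value rests on titled control replicate 3 (-0.05 without it), at -0.47 against 0.31 and 0.38 on the other titled control arrays and 0.33 to 0.40 on the titled myopia arrays. The ratios of miR-30a and miR-30e differed by -0.14 and -0.31, and without that array by -0.01 and -0.08. In all 6 arrays, 0 of 2 pairs passed (background 0% of 47; 0 pairs at an unadjusted p under 0.05).

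Whether the arm difference itself differed between tissues was tested with an interaction term. By titles, 0 of 8 members passed in any of the 3 contrasts, with backgrounds of 1.64% for retina minus sclera, 1.17% for whole eye minus retina and 2.35% for whole eye minus sclera. At an unadjusted p under 0.05 there were 0, 0 and 3 members, beside 73, 29 and 66 of all 426 tested miRNAs. The 3 included miR-30c-1-3p. For miR-30c-1-3p the arm difference was larger in whole eye than in retina by 1.31 (SE 0.870, limma adjusted p = 1). Against sclera no such difference is given for it, since its signal was detected on 0 of 6 sclera arrays and its arm difference there is set by the floor. With array weights, miR-30b-5p (0.25, limma adjusted p = 0.0289) and miR-30c-5p (0.22, limma adjusted p = 0.0496) passed for retina minus sclera, and miR-30b-5p (0.27, limma adjusted p = 0.0405) for whole eye minus sclera. With those weights, 105 of all 426 tested miRNAs passed for retina minus sclera and 31 of 426 for whole eye minus sclera. For whole eye minus sclera miR-30c-1-3p was called too, with the same limit. With the arms of retina and sclera taken from the phenotype field instead, its difference between whole eye and retina was 3.83 (limma adjusted p = 0.00319), so this call depends on which label is right. By those labels, 81 of all 426 tested miRNAs passed for whole eye minus retina.

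The other 3 relatives on the array were followed beside the members: miR-30b-3p, miR-30c-2-3p and the seed relative miR-384-5p. In whole eye, 0 of 3 passed, at 0.15, 0.08 and 0.04, beside 10.3% of all tested miRNAs. miR-30c-2-3p shares its seed with miR-30c-1-3p, was detected on all 24 arrays and ran from -4.16 to -3.93 in whole eye myopia and from -4.24 to -3.96 in control. Its ratio to miR-30c-5p differed by 0.01 (95% interval -0.11 to 0.13) between the whole eye arms. Of these, miR-30b-3p and miR-30c-2-3p, both detected in sclera, were higher in retina than in sclera, beside 58.7% of all tested miRNAs. miR-30c-2-3p was higher by 1.14, miR-30b-3p by 1.02 and miR-384-5p at least 37.3-fold, the last detected on 0 of 6 sclera arrays. The ratio of miR-30b-3p to miR-30b-5p differed by -0.66 between retina and sclera (limma adjusted p = 8.57e-05), where sclera titled control replicate 3 was at -3.59 and the other sclera arrays ran from -4.68 to -4.37. That of miR-30c-2-3p to miR-30c-5p differed by -0.16 (limma adjusted p = 0.0314). Whether strand ratios differed from each other in their tissue differences was not tested.

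Of 14 miRNAs linked to fibrosis in other tissues, a list chosen beside miR-30 for its known role there, 0 passed in whole eye. Of all tested miRNAs 10.3% did. Their differences on the list ran from -0.29 to 0.13. Between retina and sclera 6 were higher, beside 58.7% of all tested miRNAs, and 8 lower. With slide as a block, 382 of all 426 tested miRNAs passed there in either direction, 250 of them higher. The miR-29 strands, repressors of collagen genes, were higher in retina, with miR-29c-3p at 2.80, miR-29b-3p at 1.76 and miR-29a-3p at 0.34, the last below the median of 0.81 over all tested miRNAs. miR-214-3p and miR-199a-3p, abundant in fibroblasts, differed by -7.75 and -8.01 in fitted values. In retina miR-214-3p was detected on no array, so its fitted value is no measured fold. Between titled arms, 0 of 14 passed in sclera (background 0% of 311) and 0 of the 10 tested in retina (background 0% of 396).

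Profiles over the 24 arrays were compared by the root mean square of the log2 difference after each was centred on its mean. Among members, pairs of 5p strands were 0.0898 to 0.308 apart, closest for miR-30c-5p and miR-30d-5p. Both strands of miR-30a were 0.0850 apart and both of miR-30e 0.154 apart. miR-30c-1-3p was 1.67 to 1.88 from every other member. Outside the family, miR-672-5p (0.550), miR-760-3p (0.619), miR-669e-5p (0.687), miR-669b-5p (0.716) and miR-15a-3p (0.743) were nearest to miR-30c-1-3p, none of them detected on a sclera array. The 4 of these tested in whole eye differed between its arms by 2.71 for miR-672-5p, 2.30 for miR-669e-5p, 1.87 for miR-669b-5p and 1.62 for miR-760-3p. These values are a description, since the whole eye arrays were among those by which the 4 were picked. Nearest to the mean of the 5p strands were let-7g-5p (0.0734), miR-107-3p (0.0951), miR-324-5p (0.0973), miR-194-5p (0.119) and miR-30c-2-3p (0.124), each detected on all sclera and whole eye arrays.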

How the data were processed

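The authors deposited the spot intensity on each array, background-subtracted by Feature Extraction 11.0.1.1 per the file headers (11 in the submitters' processing notes). They also deposited a table of log2 values per probe, whose making no source used here describes. The number of columns left unmapped was 0. The processed signal was averaged over spots not flagged as outliers, summed over a miRNA's probes and scaled by the 75th percentile, on that array, of the miRNAs detected throughout a fit (288 in whole eye, 329 in retina, 266 in sclera, 237 over 24 arrays). It was then floored (log2 -6.58, -9.32, -7.18 and -7.69) and log2 transformed. A miRNA was tested if detected on at least 2 of 3 arrays of a group. Tests used limma 3.58.1 in R 4.3.3 (lmFit, eBayes; two-sided and unpaired), with Benjamini-Hochberg adjustment over all miRNAs or strand pairs tested and a threshold of 0.05. The fits were tested on simulated data. For a miRNA undetected throughout a group, "at least" sets the brighter mean against the lowest detected signal on each dim array, or the miRNA's own signal where that is higher. Array numbers were taken to pair no samples, since the labels pair no arrays by animal. Same-numbered arrays of both arms share a slide. The correlation of their deviations ran from -0.22 to 0.49 in whole eye, -0.22 to 0.64 in retina and -0.37 to -0.10 in sclera. Such values cannot decide whether same-numbered arrays came from the same animals. All 8 members, the relatives, the fibrosis-linked and marker lists and the rule for most alike profiles (the 5 smallest distances) were chosen with earlier results of these data known. Figures used Python 3.11.15, numpy 2.4.6, pandas 2.3.3 and matplotlib 3.10.9.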

Additional observations from a re-analysis of the deposited data

How the results depend on the processing

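Of the counts of members past the threshold, most stayed within 1.5 times their value; the exceptions follow. Whole eye arms (1 of 8) gave 0 with normexp, 0 within slide 3 and 2 with array weights, which added miR-30e-5p (0.14, limma adjusted p = 0.0486). With those weights, 50 of all 341 tested miRNAs passed. With normexp it was 22 of 341, and in the slide 3 fit 11 of 352. The whole eye strand ratio (1 of 3) gave 0 with normexp, with the authors' value table and within each of slides 1, 2 and 3. In that order, 0 of 55, 2 of 55, 0 of 52, 2 of 53 and 0 of 58 pairs passed. Whole eye minus retina (8) gave 4 with the percentile over all miRNAs, 5 after quantile normalisation and 5 with normexp. Retina minus sclera (8, miR-30c-1-3p on floored values) gave 5 with normexp. In that order, 318, 331, 163 and 313 of all 426 tested miRNAs passed in either direction. Of these, 137, 132, 51 and 68 were higher in the tissue named first. For strand ratios, retina minus sclera (1) gave 3 after quantile normalisation, 3 with normexp and 3 with array weights. It gave 2 with the total gene signal and 0 with the value table. In that order, 73, 65, 64, 58 and 67 of all 85 pairs passed in either direction. Whole eye minus retina (1) gave 2 after quantile normalisation and 0 with normexp and with the value table. Of all 85 pairs, 57, 43 and 51 passed there. Whole eye minus sclera (1) gave 2 after quantile normalisation, 3 with normexp and 3 with array weights. It gave 0 with the total gene signal, with the value table and with a floor 1 log2 unit higher. Of all 85 pairs, 48, 58, 56, 46, 50 and 46 passed in the order given. With 1 array left out at a time, the ratio counts ran from 1 to 3 for retina minus sclera and for whole eye minus sclera. The 3 came without sclera titled control replicate 3, where 66 and 46 of all 85 pairs passed. Arm differences between tissues (0) gave 2 with array weights for retina minus sclera (miR-30b-5p and miR-30c-5p) and 2 for whole eye minus sclera (miR-30b-5p and miR-30c-1-3p), and 1 with arms from the phenotype field for whole eye minus retina. In that order, 105, 31 and 81 of all 426 tested miRNAs passed.

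Signs turned mainly with normexp. For miR-30c-1-3p it gave -0.0013 between retina arms, -0.36 for retina minus sclera and -1.02 for whole eye minus sclera. Its ratio to miR-30c-5p gave -1.87, 0.080 and -1.79 for retina minus sclera, whole eye minus retina and whole eye minus sclera, and with the value table -0.0021 and -0.36 for the first and last. miR-30a-3p gave -0.17 and -0.53, and miR-30e-3p -0.094 and -0.52, against sclera in retina and whole eye. The arm difference of miR-30c-1-3p, retina minus sclera, in which the sclera side is undetected, was -1.13 with arms from the phenotype field. Apart from what normexp's offset and the label swap do by construction, the cause was not tested. With the replicate number as a block, 1 of 8 whole eye members and 1 of 3 ratios passed, at 2.56 (SE 0.459) and 2.49 (SE 0.470) for miR-30c-1-3p, and the block changed no other count. Signal over background limits miR-30c-1-3p in sclera and in whole eye control.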
